A study of Mus musculus with 9 samples.

Results

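The 40 genes described here are the autophagy genes and cargo receptors of the mouse: 20 rows of the deposited table whose symbol starts with Atg and a digit, and 20 more taken by name. The 20 named genes are kinases, PI3-kinase subunits, ATG8 proteins, PI3P readers and receptors. They are 40 of 45535 rows that carry a gene symbol, and no member symbol is used by more than 1 row. The study asked how culture changes dendritic cells (DCs) that carry the integrin CD103, isolated from fibrotic lung. The mice were of the C57/BL6j genotype, and all had 7 days of bleomycin, which injures the lung and is used as a fibrosis model. Lungs were digested with collagenase, and CD103+ cells were taken out on magnetic beads. The group called before culture (n = 5) was harvested directly, and the group called after culture (n = 4) spent 18 h in RPMI medium with serum and antibiotics. Age, bead purity and the number of mice behind a sample are not given in the labels, so the p-values measure the spread between these samples, which may be technical. The extraction note speaks of total lung RNA, while the cell type label of every sample names CD103+ DCs.

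Autophagy encloses cytoplasm in a double membrane, the autophagosome, which then fuses with a lysosome. A kinase complex around ULK1 or ULK2 starts the process, a PI3-kinase complex makes the lipid PI3P on the growing membrane, and ATG9 and ATG2 supply lipid to it. An ubiquitin-like conjugation system then attaches ATG8 proteins (the LC3 and GABARAP families) to the membrane, where cargo receptors such as p62 bind them. In dendritic cells parts of this machinery also deliver antigen to MHC molecules and act in phagocytosis.

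Values are normalized read counts, that is, reads per gene divided by 1 factor per sample, and are not corrected for gene length. Depth in rows with a symbol was 14.7 to 28.8 M reads before culture and 26.0 to 35.3 M after culture, and 1 read is worth 0.758 to 1.79 normalized counts. Genes with a mean of at least 10 were tested (18202 genes) with limma on log2(value + 1), and a change was called at an adjusted p under 0.05. The selecting gene itself moved: Itgae, which encodes CD103, stood at 18138 ± 1537 (SD, n = 5) before and 1727 ± 335 (SD, n = 4) after culture, 10.5-fold lower. Of 12 markers of type 1 conventional DCs, 9 were lower and 3 higher after culture, and their summed level was 158050 to 188660 before and 45637 to 48051 after. The 3 that rose were Flt3, Batf3 and Zbtb46 (log2 fold changes 0.67, 0.56 and 0.26). Much of the fall in the sum came from Wdfy4, whose mean went from 75716.5 to 4761. Of 10 marker lists of other lung cells, 6 had a lower summed level after culture in every sample. Neutrophil markers summed to 14298 to 25015 before and 932 to 1902 after. The neutrophil marker Ly6g was at only 1.90 to 11.2 before culture, too low to be tested, and at 0 in every sample after. Endothelial markers summed to 23673 to 34794 and 3312 to 4346, fibroblast markers to 16006 to 29140 and 2347 to 4629, and alveolar epithelial markers to 23630 to 37858 and 4413 to 7808. None of the other defining markers was at 0 throughout a group. These marker levels moved together with every result below, their part in those results was not tested, and fewer cells of a type cannot be told apart from less RNA per cell.

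Autophagy genes were expressed in both groups, and culture moved them in both directions. Of the 38 members tested, 17 rose and 9 fell, so 26 (68.4%) passed the threshold, beside 68.8% of all tested genes. The share that rose was 44.7%, beside 34.2% of all tested genes, and the share that fell was 23.7%, beside 34.6%. The counts by role below cover 4 to 7 genes each and were not tested against these shares. The groups did not overlap for 25 of the 38 members (65.8%), beside 57.3% of all tested genes. Changes of at least 2-fold were made by 5 members (13.2%), against 32.7% of all tested genes. The median size of change was 0.30 on the log2 scale over the members and 0.64 over all tested genes, with median standard errors of 0.086 and 0.15. The signed medians were 0.06 for members and 0.01 for all tested genes. The other pair of members could not be tested. Atg5lrt had no read in any sample, and Atg4a-ps reached at most 3.53 normalized counts in a sample, where 3 reads are worth 2.27 to 5.37.

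**Figure D1:**
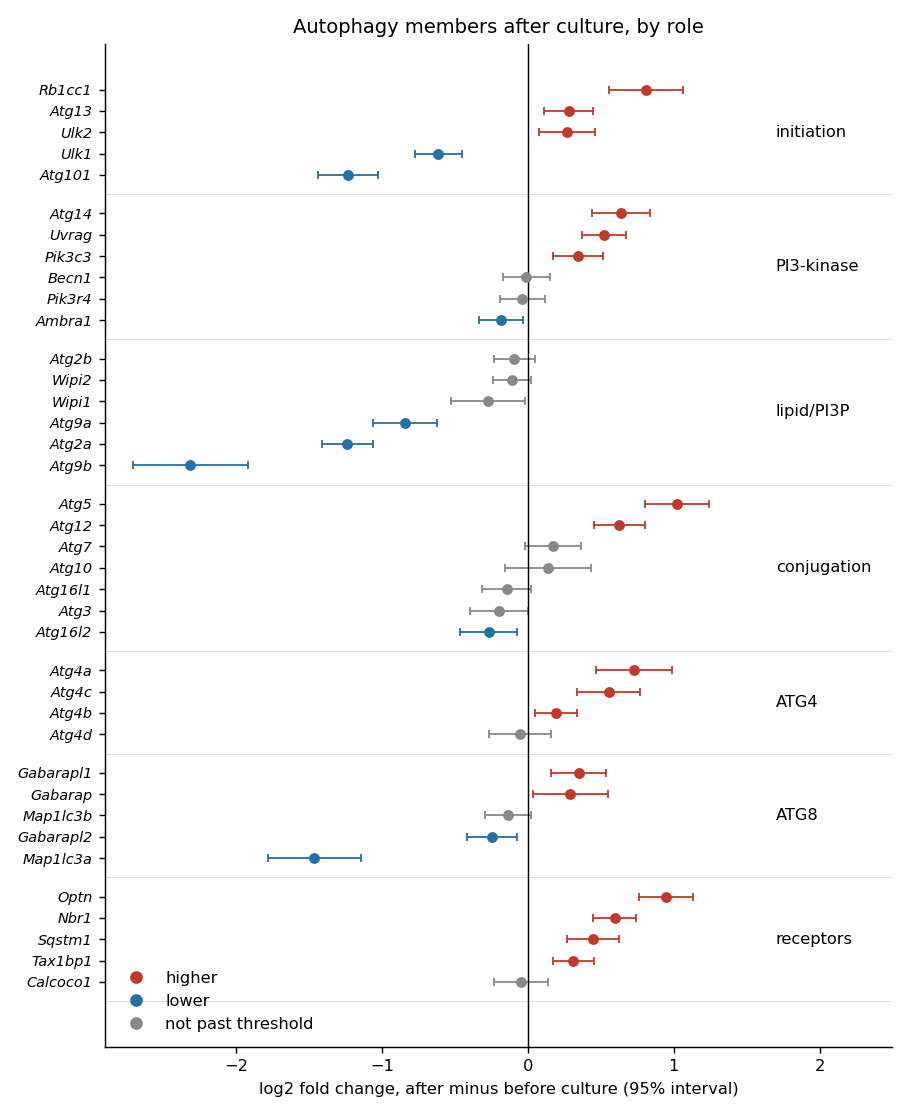
The log2 fold change (after minus before culture, x axis) of the 38 tested members, 1 row each, ordered by role, as points with the 95% interval from limma, over 5 samples before and 4 after. Red points rose, blue points fell and grey points did not pass the threshold; Atg9b lies farthest to the left at -2.32 and Atg5 farthest to the right at 1.02.

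The members that fell by at least 2-fold were Atg9b, Map1lc3a, Atg2a and Atg101, and the member that rose by at least 2-fold was Atg5. The transcripts that fell are rich in G and C, and the transcript that rose is not. The GC content of the longest annotated transcript was 63.1% for Map1lc3a, 60.0% for Atg2a, 58.5% for Atg9b and 58.0% for Atg101, against 44.6% for Atg5. The first 90 coding bases of these 5 genes are shown because they are the members that changed most. They come from GENCODE M21 (GRCm38.p6) and run 5′ to 3′, with capitals marking G or C at the third base of a codon. The coordinates are those of the whole gene in the RefSeq annotation, on the - strand for Atg9b and on the + strand for the others.
Map1lc3a (chromosome 2, 155276364 to 155278073): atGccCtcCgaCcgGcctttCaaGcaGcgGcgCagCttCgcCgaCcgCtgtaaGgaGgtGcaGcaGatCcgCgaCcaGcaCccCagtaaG
Atg101 (chromosome 15, 101284301 to 101290947): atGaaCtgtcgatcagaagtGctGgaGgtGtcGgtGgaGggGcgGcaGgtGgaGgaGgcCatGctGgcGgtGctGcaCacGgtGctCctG
Atg9b (chromosome 5, 24384181 to 24392143): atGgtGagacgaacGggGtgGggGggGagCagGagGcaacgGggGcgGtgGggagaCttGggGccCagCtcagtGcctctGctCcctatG
Atg2a (chromosome 19, 6241478 to 6262304): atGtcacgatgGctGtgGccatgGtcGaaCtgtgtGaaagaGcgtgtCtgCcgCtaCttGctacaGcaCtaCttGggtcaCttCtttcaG
Atg5 (chromosome 10, 44268322 to 44364299): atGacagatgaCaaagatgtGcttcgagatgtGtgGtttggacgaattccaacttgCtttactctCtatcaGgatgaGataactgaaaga
In these 30 codons the third base is G or C in 27 for Map1lc3a, 26 for Atg101, 23 for Atg9b, 21 for Atg2a and 9 for Atg5. Over the whole coding sequence the share is 82.8%, 81.3%, 69.1%, 68.3% and 44.9% in the same order. The first 30 codons do not separate all members that rose from those that fell. Among the 17 that rose the count runs from 8 for Nbr1 to 28 for Sqstm1, Uvrag and Ulk2, and Pik3c3 has 26.

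The relation of GC content to the change was then described over all members. The 5 genes above are among them, and no value without them was computed. Over the 38 tested members, the log2 fold change and the transcript GC content had a Spearman correlation of -0.57 (Pearson -0.64). Over 17788 tested genes with a transcript in the annotation the Spearman correlation was -0.32 (Pearson -0.26). Both are descriptions across genes, which are measured in the same libraries and are not independent replicates. Transcript length went with the change much less, with a Spearman correlation of -0.08 over the members. Of the 7 members with a GC content of at least 55.2%, 6 fell, and Calcoco1 did not pass the threshold; their median log2 fold change was -1.24, beside -0.43 for all tested genes of that GC content. Of the 21 members at or below 51.1%, 14 rose and 2 fell. In the equal groups by GC content up to that value, from low to high, the members had medians of 0.31, 0.27 and 0.34. Those of all tested genes were 0.44, 0.21 and 0.03. How many of all tested genes rose or fell within these GC ranges was not counted. The trend was also described by sample, from each sample's deviation from the mean of a gene over all samples. That mean holds both groups, so opposite signs of the groups follow in part from the trend between them. The values by sample are therefore no separate support for the trend. The Spearman correlation of GC content with a sample's deviation from the mean of each gene over all tested genes was 0.37, 0.32, 0.33, 0.03 and 0.32 in replicates 1 to 5 before culture. It was -0.25, -0.24, -0.35 and -0.33 in replicates 1 to 4 after culture, so replicate 4 before culture stood apart from the other samples of its group. Without that sample, 16 members rose and 11 fell, beside 34.6% and 35.1% of all tested genes.

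**Figure D2:**
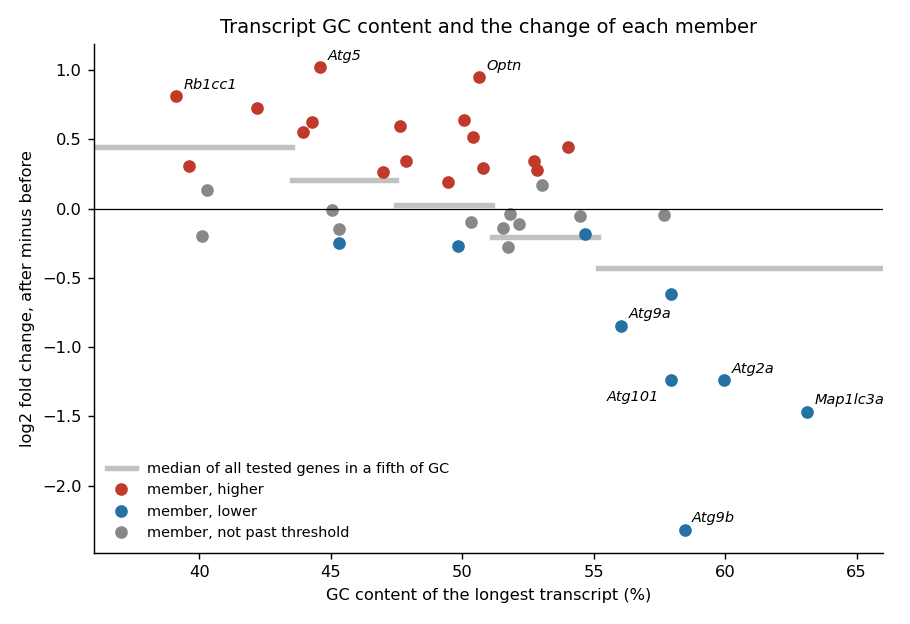
The GC content of the longest transcript (x axis, percent) and the log2 fold change after minus before culture (y axis) of the 38 tested members, coloured by call, with grey bars for the median of all tested genes in each of 5 equal groups by GC content. The members above 55.2% GC all lie at or below -0.05, and the grey bars step down from 0.44 to -0.43.

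When a smooth curve over GC content and then length was fitted to each sample and taken out, 20 of the 38 members rose and 12 fell. Of all 17797 genes corrected in this way, 34.0% rose and 33.1% fell. Only Atg9b among the members kept a change of at least 2-fold (log2 fold change -1.84), and that share of all genes was not counted after the correction. The falls of Atg101, Map1lc3a, Atg2a and Atg9a came to -0.80, -0.71, -0.65 and -0.46, and the rise of Atg5 to 0.75. The rises of Atg4a, Atg4c, Rb1cc1 and Atg12 came to 0.34, 0.29, 0.32 and 0.41. The changes of Sqstm1, Gabarapl1, Gabarapl2 and Atg13 were larger after the correction, at 0.69, 0.52, -0.49 and 0.51. Ulk1 no longer passed (-0.13, limma adjusted p = 0.12), and Ambra1 (0.16) and Tax1bp1 (-0.21) passed in the opposite direction. Members that had not passed did so after the correction: Atg3 (-0.74), Atg10 (-0.39), Atg16l1 (-0.34) and Becn1 (-0.21) as lower, and Atg7 (0.40), Calcoco1 (0.37) and Atg4d (0.28) as higher. Whether the GC trend belongs to the cells or to the libraries was not tested.

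The initiation complex split, with 3 subunits up and 2 down among its 5 members. Atg101, the subunit that stabilises ATG13, had 616, 589, 605, 502 and 544 normalized counts before culture and 237, 253, 220 and 257 after. Every sample after culture lay below every sample before, and the mean fell 2.36-fold (log2 fold change -1.24, SE 0.096, limma adjusted p = 8.98e-08). Ulk1, the main initiating kinase, had 2437, 2168, 2402, 2311 and 2556 before and 1487, 1638, 1425 and 1647 after, again with no overlap, a 1.53-fold fall (adjusted p = 6.93e-06). Its paralogue Ulk2 had 1345, 1523, 1458, 1639 and 1355 before and 1546, 1904, 1661 and 1942 after. The Ulk2 groups overlapped, since the lowest value after culture lay below the highest before, and the log2 fold change was 0.27 (limma adjusted p = 0.018). That call was lost without replicate 2 or 4 after culture (adjusted p = 0.051 and 0.066). Rb1cc1, which encodes the scaffold FIP200, rose from 1494 ± 249 (SD, n = 5) to 2612 ± 359 (SD, n = 4), 1.75-fold. Atg13, the adaptor between the kinase and FIP200, rose from 1209 ± 38.0 (SD, n = 5) to 1474 ± 147 (SD, n = 4).

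Of the 6 members of the PI3-kinase complex, 3 rose and 1 fell. Atg14, the subunit that directs the complex to autophagosomes, rose from 316 ± 23.9 (SD, n = 5) to 491 ± 22.0 (SD, n = 4), and Uvrag, which takes its place in the endosomal complex, rose from 3543 ± 153 (SD, n = 5) to 5088 ± 338 (SD, n = 4). Their log2 fold changes were 0.64 and 0.52 and the samples of the groups did not overlap for either gene. The catalytic subunit gene Pik3c3 rose from 805 ± 67.6 (SD, n = 5) to 1018 ± 39.2 (SD, n = 4). Becn1, the scaffold shared by both complexes, did not pass (log2 fold change -0.01, 95% interval -0.17 to 0.15), nor did the regulatory subunit Pik3r4 (-0.04, interval -0.19 to 0.11). Ambra1, a regulator that binds Beclin 1, fell by 0.18 on the log2 scale (adjusted p = 0.033 with limma). That call was lost without replicate 1 or 2 before or replicate 1 or 3 after culture (adjusted p 0.062 to 0.090). With all samples the Ambra1 call was also lost with no filter, TMM scaling, upper quartile scaling or a replicate block by title number (limma adjusted p 0.055 to 0.34). Of the exon bases of Becn1, 43.9% overlap the opposite-strand gene Cntd1, which was itself at 63.6 ± 6.36 (SD, n = 5) and 50.4 ± 9.96 (SD, n = 4). Whether reads were counted by strand is not given in the sources used here.

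Of the 6 lipid supply and PI3P-reading members 3 fell, among them Atg9b, which fell most of all members. Atg9b, a lipid scramblase paralogue, had 296, 225, 223, 184 and 197 normalized counts before culture and 38.0, 59.1, 43.7 and 37.3 after. The lowest sample before was above the highest after, and the mean fell 5.06-fold (log2 fold change -2.32, SE 0.18, limma adjusted p = 1.02e-07). Of its exon bases 7.45% overlap Nos3 on the opposite strand, an endothelial nitric oxide synthase whose level went from 202 ± 42.3 (SD, n = 5) to 16.7 ± 2.96 (SD, n = 4). Atg2a, one of the paired lipid transfer proteins, had 6313, 5941, 6215, 5671 and 7446 before and 2771, 2717, 2529 and 2643 after, with no overlap and a 2.37-fold fall (log2 fold change -1.24, SE 0.081, adjusted p = 1.61e-08). Its paralogue Atg2b had 1753, 1776, 1843, 1886 and 1910 before and 1654, 1832, 1733 and 1660 after. These groups overlapped, and the log2 fold change of Atg2b was -0.09 (95% interval -0.23 to 0.05). Atg9a, the ubiquitous scramblase, fell 1.80-fold from 1249 ± 141 (SD, n = 5) to 694 ± 75.8 (SD, n = 4). It shares 42.3% of its 50-base windows with Gm29253, an overlapping gene with 1.19 ± 1.46 (SD, n = 5) and 3.08 ± 1.23 (SD, n = 4) counts. The PI3P readers moved less. Wipi2, which recruits ATG16L1, was 1862 ± 37.7 (SD, n = 5) and 1725 ± 28.7 (SD, n = 4), and its samples did not overlap, but it did not pass (limma adjusted p = 0.12). Wipi1 had a log2 fold change of -0.28 (95% interval -0.53 to -0.02) and an adjusted p of 0.0502 with limma, and it passed in both count models.

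In the conjugation machinery, the 2 genes whose products are joined to each other both rose. Atg5, the acceptor of ATG12, had 677, 772, 737, 737 and 695 before culture and 1342, 1685, 1226 and 1682 after. Every sample after culture was above every sample before, and the mean rose 2.05-fold (log2 fold change 1.02, SE 0.10, limma adjusted p = 1.03e-06). Atg12, the ubiquitin-like protein, rose 1.55-fold from 662 ± 22.8 (SD, n = 5) to 1026 ± 99.5 (SD, n = 4), also without overlap. The enzymes that join them did not pass. Atg7, the E1-like enzyme, had a log2 fold change of 0.17 (95% interval -0.02 to 0.36), and Atg10, the E2-like enzyme for ATG12, one of 0.14 (interval -0.16 to 0.44). Atg3, the E2-like enzyme for ATG8 proteins, was at -0.20 (interval -0.40 to -0.00, adjusted p = 0.070), and it passed after the GC and length correction (-0.74, limma adjusted p = 8.53e-05). Of the ATG16L proteins that place the conjugate on membranes, Atg16l2 fell by 0.27 on the log2 scale (limma adjusted p = 0.017), while Atg16l1 was at -0.15 (interval -0.31 to 0.02). The Atg16l2 call was lost without replicate 2 or 4 after culture (adjusted p = 0.057 and 0.052). With all samples it was also lost with upper quartile scaling, quantile scaling or a replicate block by title number (limma adjusted p = 0.15, 0.091 and 0.066).

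Of the ATG4 proteases, which trim ATG8 proteins before conjugation and free them again, 3 of 4 rose. Atg4a rose from 274 ± 39.3 (SD, n = 5) to 453 ± 49.3 (SD, n = 4), 1.65-fold, and shares 63.6% of its 50-base windows with the barely detected Atg4a-ps. Atg4c had 368, 376, 395, 326 and 360 before culture and 499, 563, 474 and 616 after. The Atg4c groups did not overlap, and the log2 fold change was 0.55 (SE 0.10, limma adjusted p = 2.71e-04). Atg4b, the highest of the 4 per kilobase of transcript, rose only by 0.19 on the log2 scale (limma adjusted p = 0.019), from 932 ± 26.5 (SD, n = 5) to 1064 ± 25.6 (SD, n = 4). Without replicate 1 after culture its adjusted p was 0.055. Atg4d had 698, 681, 738, 666 and 723 before and 779, 629, 742 and 570 after. The samples after culture lay on both sides of those before, and Atg4d did not pass (log2 fold change -0.05, interval -0.27 to 0.16).

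Among the 5 ATG8 genes, Gabarap and Gabarapl1 rose, Map1lc3a and Gabarapl2 fell, and Map1lc3b did not pass. Map1lc3a, which encodes LC3A, had 661, 640, 601, 404 and 444 normalized counts before culture and 181, 196, 197 and 205 after. The groups were far apart, and the mean fell 2.82-fold (log2 fold change -1.47, SE 0.15, limma adjusted p = 1.13e-06). Map1lc3b, which encodes the LC3B protein used as the standard autophagosome marker, had 3990, 4284, 4194, 4181 and 3732 before and 3620, 4011, 3369 and 3836 after. Its groups overlapped, and the log2 fold change was -0.14 (95% interval -0.29 to 0.02). Gabarapl1 had 1669, 1615, 1678, 1514 and 1661 before and 2083, 2303, 1710 and 2232 after. Each sample after culture exceeded all samples before, by little in replicate 3, and the log2 fold change was 0.35 (limma adjusted p = 0.0033). Gabarapl2 moved the other way, with 834, 891, 799, 747 and 788 before and 677, 728, 637 and 686 after, without overlap (log2 fold change -0.25, limma adjusted p = 0.013). With upper quartile scaling Gabarapl2 did not pass (-0.14, limma adjusted p = 0.11). Gabarap rose from 8583 ± 1099 (SD, n = 5) to 10514 ± 1561 (SD, n = 4) with overlapping groups (limma adjusted p = 0.044). The Gabarap call was lost when any of replicates 1, 4 and 5 before or 1, 2 and 4 after culture was left out (adjusted p 0.064 to 0.12). With all samples it was also lost with no filter or a replicate block by title number (limma adjusted p = 0.059 and 0.096). Of the exon bases of Gabarapl1, 28.3% overlap 1700101I11Rik on the opposite strand, which was at 56.7 ± 6.50 (SD, n = 5) and 12.5 ± 3.40 (SD, n = 4).

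Per kilobase of the longest transcript, Gabarap was the most abundant member in both groups, at 6353 ± 814 (SD, n = 5) and 7782 ± 1155 (SD, n = 4) normalized counts per kb. Sqstm1 followed at 5333 ± 396 (SD, n = 5) and 7259 ± 540 (SD, n = 4), and its samples overlapped those of Gabarap in both groups. Tax1bp1 came next with 1271 ± 67.5 (SD, n = 5) and 1576 ± 50.8 (SD, n = 4), far below both. At the other end Atg9b had 57.7 and 11.4 per kb. Within the summed per-kb level of the 5 ATG8 genes, Gabarap held 68.8% ± 2.17 (SD, n = 5) before and 74.7% ± 1.27 (SD, n = 4) after culture. Map1lc3a held 5.34% ± 0.783 (SD, n = 5) and 1.71% ± 0.259 (SD, n = 4), and its highest share after culture (2.09%) was below its lowest before (4.39%). The share of Map1lc3b was 10.8% ± 1.37 (SD, n = 5) and 8.67% ± 0.606 (SD, n = 4), and that of Gabarapl1 9.77% ± 0.751 (SD, n = 5) and 11.0% ± 0.119 (SD, n = 4). These shares depend on which transcript of each gene is used for length.

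Of the 5 cargo receptors, 4 rose (80%), beside 34.2% of all tested genes. Optn, which encodes optineurin, a receptor for ubiquitinated mitochondria and bacteria, had 244, 251, 249, 235 and 245 before culture and 471, 495, 477 and 452 after. Both groups were tight and far apart, and the mean rose 1.93-fold (log2 fold change 0.95, SE 0.086, limma adjusted p = 3.98e-07). Sqstm1, which encodes p62, a receptor for ubiquitinated proteins that is itself degraded by autophagy, had 14328, 13994, 15262, 12612 and 15084 before and 19982, 19836, 17285 and 20514 after. All 4 samples after culture lay above all 5 before, a 1.36-fold rise (log2 fold change 0.44, SE 0.083, adjusted p = 3.43e-04 with limma). Nbr1, a receptor that works together with p62, had 1823, 1883, 1927, 1976 and 1726 before and 2633, 2893, 2794 and 2957 after. The groups did not overlap, and Nbr1 rose 1.51-fold. Tax1bp1, which binds ubiquitinated cargo and damps NF-kB signalling, rose from 5401 ± 287 (SD, n = 5) to 6696 ± 216 (SD, n = 4). Calcoco1, a receptor for endoplasmic reticulum, did not pass (log2 fold change -0.05, 95% interval -0.23 to 0.14). After the GC and length correction Tax1bp1 passed as lower (-0.21) and Calcoco1 as higher (0.37). The rise of Sqstm1 stands beside a fall in Mrnip, an opposite-strand gene that overlaps 17.3% of its exon bases, from 249 ± 52.7 (SD, n = 5) to 67.8 ± 16.2 (SD, n = 4).

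**Figure D3:**
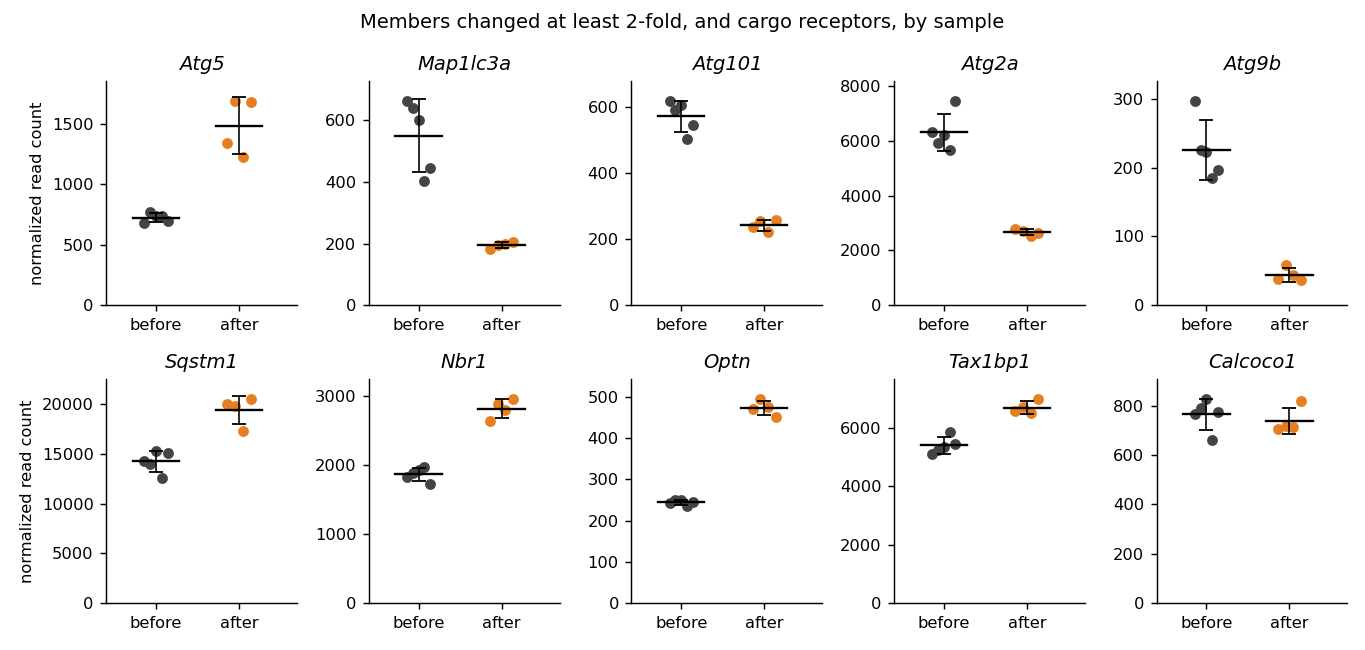
Normalized read counts (y axes, each from 0) of the 5 members changed at least 2-fold (upper panels) and of the 5 cargo receptors (lower panels), with 1 point per sample before (n = 5) and after (n = 4) culture, a line at the mean and bars of 1 SD. In 9 of the 10 panels the points of the groups do not overlap, and in the Calcoco1 panel they do. The upper 5 were chosen for their large changes, and the groups did not overlap for 57.3% of all tested genes.

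A ratio of paired genes within a sample does not depend on how the sample was scaled, so 10 pairs of paralogues or related receptors were compared. The ratios are of counts and not per length, so their change is given and not their level. The log2 ratio shifted in 5 of them, with an exact two-sided permutation p of 0.0159 each, the smallest that 5 against 4 samples can give, and an adjusted p of 0.032 over the 10 pairs. The Ulk1 to Ulk2 ratio went from 0.70 ± 0.19 (SD, n = 5) to -0.18 ± 0.085 (SD, n = 4) on the log2 scale. The Atg2a to Atg2b ratio went from 1.78 ± 0.14 (SD, n = 5) to 0.63 ± 0.093 (SD, n = 4), and the Map1lc3a to Map1lc3b ratio from -2.91 ± 0.31 (SD, n = 5) to -4.24 ± 0.12 (SD, n = 4). In these 3 pairs the gene named first lost ground to its paralogue by 0.88, 1.15 and 1.33, respectively.

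The other 2 shifted ratios rose. Gabarapl1 gained on Gabarapl2 by 0.60, from 1.00 ± 0.088 (SD, n = 5) to 1.60 ± 0.12 (SD, n = 4). Atg4c gained on Atg4d by 0.61, from -0.94 ± 0.073 (SD, n = 5) to -0.33 ± 0.37 (SD, n = 4), with values after culture spread from -0.64 to 0.11. After removal of the GC and length trend the Atg4c to Atg4d shift was 0.01 (exact permutation, adjusted p = 0.98), while the other 4 shifts still passed with other sizes. They were -0.33 for Ulk1 to Ulk2, -0.65 for Atg2a to Atg2b, -0.70 for Map1lc3a to Map1lc3b and 1.01 for Gabarapl1 to Gabarapl2. For the 5 remaining pairs the shifts did not pass. They were 0.54 for Atg4a to Atg4b (SE 0.12, exact permutation, adjusted p = 0.053), 0.12 for Atg16l1 to Atg16l2 (SE 0.074), 0.06 for Gabarapl1 to Gabarap (SE 0.068), -0.15 for Sqstm1 to Nbr1 (SE 0.096) and -0.17 for Wipi1 to Wipi2 (SE 0.11). Leaving out replicate 4 before culture brought the pairs Atg4a to Atg4b (0.61) and Gabarapl1 to Gabarap (0.12) past the threshold, each with an adjusted p of 0.041 by exact permutation.

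**Figure D4:**
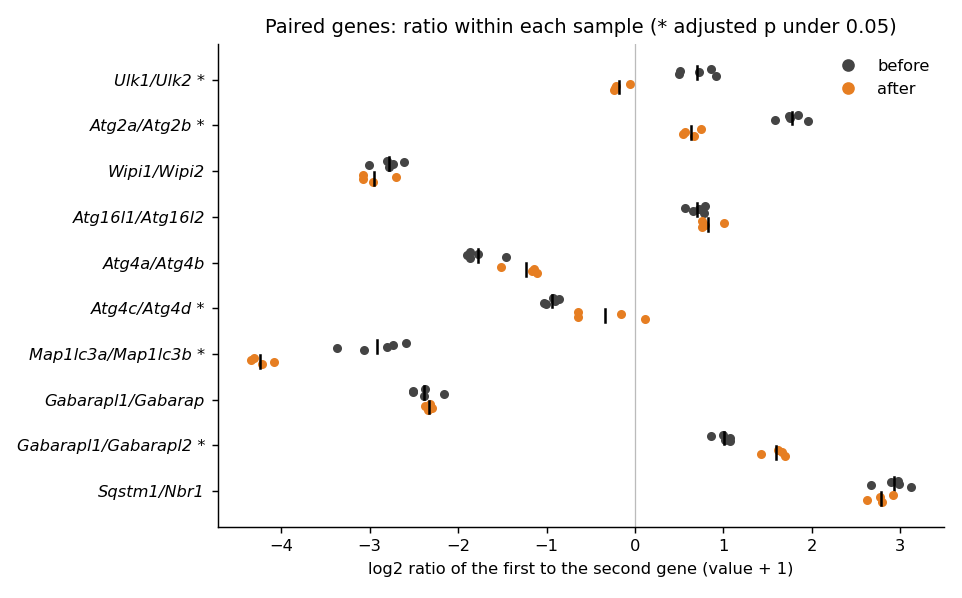
The log2 ratio of the first to the second gene of each of 10 pairs (x axis), with 1 point per sample before (grey, n = 5) and after (orange, n = 4) culture and a black tick at each group's mean. In the 5 pairs marked with an asterisk the groups do not overlap; the mean Ulk1 to Ulk2 ratio moves from 0.70 to -0.18.

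Promoter windows were read for the E-box that the transcription factors TFEB, TFE3 and MITF bind (CACGTG), because these factors are known regulators of autophagy genes. RefSeq (GRCm38.p6) gave the 250 bases before an annotated transcript start of 32 of the 40 members. That start is not always the outer start of the gene, so some windows reach into the gene or lie inside it. The Atg4c window, for example, begins at 99193684 on the + strand, and the gene at 99189159. The E-box was in 3 windows (9.38%), beside 6.04% of all 27025 windows and 7.96% of the windows of tested genes. The 3 genes are the conjugation genes Atg3, Atg5 and Atg7, of which Atg5 rose and the other two did not pass. Of their windows only that of Atg3 lies wholly before the gene, which starts at 45158829. The Atg7 window (114670846 to 114671095) lies inside the gene, which starts at 114643127. The Atg5 window ends at 44268338, past the gene start at 44268322. Its E-box, at -14 from the transcript start used, also lies past the gene start. After the GC and length correction Atg3 passed as lower (-0.74) and Atg7 as higher (0.40). Both windows below are on the + strand, from 5′ to 3′, with the E-box in capitals. They are shown as the windows of the member that rose most and of the one that holds the E-box at 2 places.
Atg5 (chr10:44268089-44268338): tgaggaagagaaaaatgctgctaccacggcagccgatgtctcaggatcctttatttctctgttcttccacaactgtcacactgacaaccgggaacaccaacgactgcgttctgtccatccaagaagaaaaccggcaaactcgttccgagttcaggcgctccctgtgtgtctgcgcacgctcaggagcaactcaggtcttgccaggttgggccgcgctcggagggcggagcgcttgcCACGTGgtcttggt
Atg3 (chr16:45158579-45158828): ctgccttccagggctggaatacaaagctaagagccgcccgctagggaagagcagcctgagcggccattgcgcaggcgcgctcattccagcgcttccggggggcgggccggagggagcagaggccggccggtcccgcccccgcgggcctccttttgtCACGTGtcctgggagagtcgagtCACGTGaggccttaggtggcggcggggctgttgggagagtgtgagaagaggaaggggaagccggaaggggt
The longer form GTCACGTG, which contains the E-box, was in 2 member windows (6.25%), those of Atg3 and Atg7. It was in 1.87% of all windows and 3.15% of the windows of tested genes. The antioxidant element TGACNNNGC was in 2 (6.25%), those of Atg13 and Ulk2, beside 10.1% of all windows, and the FOXO element GTAAACA in none of the 32, beside 3.06%. All were searched on both strands, and a match is a description of letters only.

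Beyond the 40 members, 6 lists of other genes of the pathway were compared. Of 101 such genes 100 were tested, 43 rose and 33 fell, beside 34.2% and 34.6% of all tested genes, with a median log2 fold change of 0.12. The counts by list were not tested against these all-gene shares. Other autophagosome factors had 9 of 15 rising and 4 falling. Rubcn, an inhibitor of the UVRAG complex that is required for LC3-associated phagocytosis, rose from 1217 ± 104 (SD, n = 5) to 2968 ± 230 (SD, n = 4), while its relative Rubcnl, which promotes fusion, fell from 754 ± 73.9 (SD, n = 5) to 314 ± 26.9 (SD, n = 4). Trim21, an ubiquitin ligase that binds antibody, rose 2.22-fold and Snx18, a membrane-shaping sorting nexin, fell 2.42-fold. Of 15 mitophagy and ER-phagy factors 4 rose and 5 fell. The mitochondrial receptor Bnip3l rose 1.66-fold, the endoplasmic reticulum receptor Tex264 rose 1.58-fold, and the kinase gene Pink1 fell 1.37-fold. The fall of Pink1 was gone after the GC and length correction (log2 fold change 0.01). That correction moved Bnip3l from 0.73 to 0.35 and Tex264 from 0.65 to 1.21.

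Among 15 genes of autophagosome-lysosome fusion 8 rose and 3 fell. Vps39, a subunit of the HOPS tethering complex, rose 2.24-fold from 1456 ± 67.5 (SD, n = 5) to 3258 ± 186 (SD, n = 4), while Vps16, a core subunit of the same complex, fell 1.32-fold. The adaptor Plekhm1 rose 1.60-fold and the tether Epg5 fell 1.46-fold. Of 35 genes of mTORC1 and AMPK signalling, which switch autophagy by nutrient state, 15 rose and 11 fell. Rragd, a GTPase that brings mTORC1 to lysosomes, rose 8.79-fold from 115 ± 5.85 (SD, n = 5) to 1008 ± 116 (SD, n = 4), the largest change of the 100. Sesn2, a leucine sensor, fell 2.68-fold, the AMPK catalytic subunit Prkaa1 rose 1.92-fold, and Stk11, the kinase upstream of it, fell 2.01-fold. After the GC and length correction the log2 fold changes were 0.47 instead of 0.94 for Prkaa1, -0.47 instead of -1.01 for Stk11, -0.93 instead of -1.42 for Sesn2 and 1.08 instead of 0.67 for Plekhm1.

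Of 14 transcription factors linked to autophagy 4 rose and 8 fell. Atf4, the factor of the amino acid response, fell 2.25-fold from 7857 ± 477 (SD, n = 5) to 3487 ± 140 (SD, n = 4). Zkscan3, a repressor of autophagy genes, rose 3.22-fold from 608 ± 38.3 (SD, n = 5) to 1959 ± 348 (SD, n = 4), and Tfec, of the MiT family, rose 2.79-fold. The 3 other genes of that family are given after their values were seen. Tfe3 was at 3089 ± 272 (SD, n = 5) and 3438 ± 556 (SD, n = 4), with overlapping groups, and did not pass (log2 fold change 0.14, 95% interval -0.09 to 0.38). Mitf rose 2.74-fold from 1006 ± 264 (SD, n = 5) to 2761 ± 558 (SD, n = 4), and Tfeb had a log2 fold change of -0.32 (limma adjusted p = 0.034) that became 0.44 after the GC and length correction. The Tfeb call was also lost when any of replicates 1, 2, 3 and 5 before or 1 and 3 after culture was left out (adjusted p 0.052 to 0.10). With all samples it was lost with TMM scaling, upper quartile scaling or a replicate block by title number (limma adjusted p = 0.053, 0.12 and 0.059). Of 6 genes of the phagocyte oxidase, which marks phagosomes for LC3 conjugation, 3 rose and 2 fell. The membrane subunit Cybb rose from 10391 ± 1247 (SD, n = 5) to 28574 ± 5413 (SD, n = 4) and the cytosolic Ncf1 from 6658 ± 847 (SD, n = 5) to 16218 ± 1138 (SD, n = 4). Rac2, the GTPase that activates the enzyme, fell 1.72-fold.

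**Figure D5:**
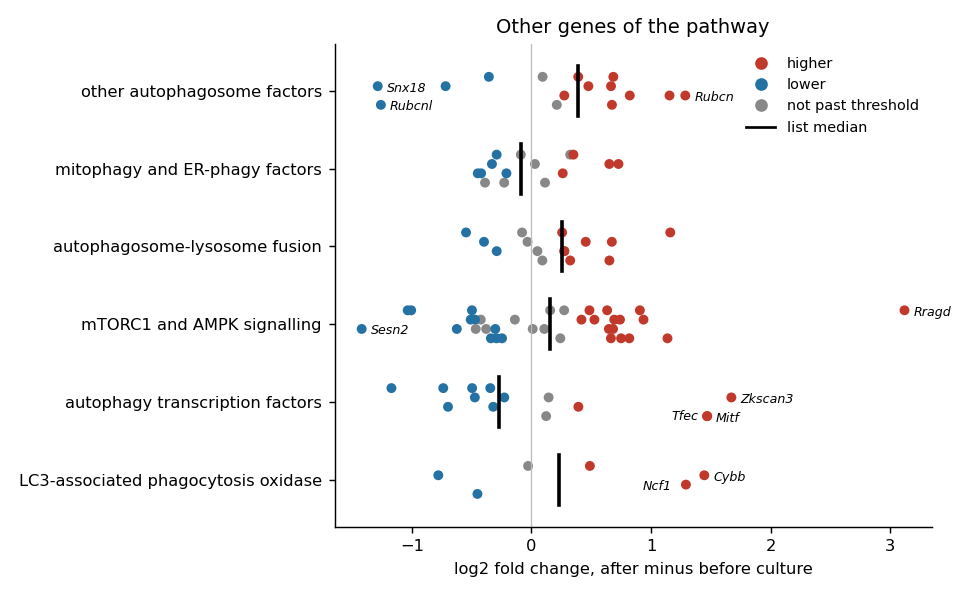
The log2 fold change (after minus before culture, x axis) of 100 other genes of the pathway in 6 lists, with 1 point per gene coloured by call and a black tick at the list median. Rragd lies at 3.12, apart from the rest, and each list holds genes that rose and genes that fell.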

How the data were processed

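The deposited values are 1 table of the authors' normalized counts (a signal, at least 0), with 49317 gene rows and 9 sample columns. DESeq2 and GRCm38 are named per the submitters' processing notes; aligner, counter, annotation and strand are not given in the sources used here. All values (100%, within 1e-06 of a read) were whole multiples of 1 read, and the factors matched median-of-ratios size factors. The 3782 rows without a symbol were left out; they held 6.43 to 10.9% of reads before culture and 3.87 to 5.46% after. The members, gene lists and pairs were chosen with earlier results of these data known, so they are no independent evidence of direction.

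Rows with a mean of at least 10 were fitted as log2(value + 1) by limma 3.58.1 (R 4.3.3; two-sided, mean-variance trend, no covariate). P-values were adjusted by Benjamini-Hochberg over 18202 genes, threshold 0.05. Folds are ratios of group means. Pair ratios had an exact permutation test over every 5 to 4 split (SciPy 1.17.1). Alternatives were pseudocounts of 0.5 and 8, no filter, a minimum mean of 50, TMM, upper quartile and quantile scaling, edgeR 4.0.16 and DESeq2 1.42.0 on the recovered reads, a replicate block, removal of a per-sample lowess curve over GC content and then length, and leaving out each replicate. Transcript sequence, GC content and exon overlap came from GENCODE M21 (97.8% of tested genes matched), which may differ from the authors' annotation. Named genes were every member, with values in every sample for members changed at least 2-fold and for pairs whose ratio passed; of each other list, up to 3 genes with the smallest adjusted p and up to 2 called against the sign of the list's median (1 such gene is not reported here). Counting error understates the error of reads without molecular identifiers, so the spread between samples was used. The scripts were tested on simulated data.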

Additional observations from a re-analysis of the deposited data

Results flagged for a closer look

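Of 126 groups of values examined (member genes and the other named genes in each group of samples), 7 had 1 sample far from the others by Dixon's criterion at 95%, where chance gives about 1 in 20, or 6.3. Replicate 4 before culture was the sample in 3 of them. There Atg4a stood at 342 normalized counts, beside 241 to 265 in the other 4 samples. Rb1cc1 stood at 1932 there, beside 1307 to 1423, and Vps16 at 995, beside 1261 to 1301. Replicate 3 before culture had 702 for Atg12, beside 648 to 658. Replicate 5 before culture had 93.1 for Atg10, beside 113 to 120. Replicate 2 before culture had 1575 for Vps39, beside 1414 to 1439. After culture, replicate 4 had 820 for Calcoco1, beside 708 to 719.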

How the results depend on the processing

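Over the 12 alternatives with all samples, 16 to 20 members rose and 6 to 12 fell, and 41 to 51 and 25 to 35 of the other pathway genes. Of all genes tested, 22.4 to 39.1% rose and 22.4 to 35.4% fell under these alternatives. Of the 26 members called, 18 kept direction and call under every alternative, leave-one-out included. The number changed at least 2-fold, 5, was 1 under the GC and length correction, 6 under upper quartile and quantile scaling and 5 under the other alternatives with all samples; the cause was not tested. Under it Atg4d (0.28), Ambra1 (0.16), Calcoco1 (0.37), Tax1bp1 (-0.21), Atg10 (-0.39), Pink1 (0.012) and Tfeb (0.44) changed sign, and the Atg4c to Atg4d shift (0.013) no longer passed. Upper quartile scaling moved the median log2 fold change of all genes to 0.11, and 24 members were then called; edgeR and DESeq2 each called 27. Leaving out 1 sample gave 15 to 18 members higher, 8 to 11 lower and 4 to 5 changed at least 2-fold, and 38 to 45 and 28 to 36 other pathway genes. The pair shifts then ran from -0.93 to -0.83 (Ulk1 to Ulk2), -1.19 to -1.10 (Atg2a to Atg2b), 0.46 to 0.71 (Atg4c to Atg4d), -1.44 to -1.25 (Map1lc3a to Map1lc3b), 0.56 to 0.66 (Gabarapl1 to Gabarapl2), 0.49 to 0.63 (Atg4a to Atg4b) and 0.025 to 0.12 (Gabarapl1 to Gabarap). The 5 that passed missed the threshold in 8 of 9 such fits (exact permutation, adjusted p 0.057 to 0.071), since fewer samples raise the smallest p.

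The replicate block by title number gave 16 members higher and 7 lower, and by library number 18 and 10. Replicates 1 to 4 after culture carry library numbers 1, 3, 4 and 5. Same-numbered samples had deviations correlated at 0.08, 0.08, -0.21 and -0.04 by title and 0.08, 0.25, 0.35 and 0.04 by library number. The labels do not say that equal numbers mark the same mice, so the main fits were unpaired. Each of the 4 samples after culture correlated best with its own library number, a hint of pairing from the data only. The main fits do not use it.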
